A study of Mus musculus with 8 samples.

Results

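Chemokine receptors and the related homing receptor GPR15 were followed in sorted mouse CD8 T cells as 9 genes given by symbol: Ccr2, Ccr7, Ccr9, Cxcr3, Cxcr4, Cxcr5, Cxcr6, Cx3cr1 and Gpr15. All 9 were found among the 13245 genes of the deposited table. The cells were lymph node CD8 T cells sorted as positive for Ly6C and CXCR3, a memory-like surface phenotype, and were profiled by RNA-seq in 4 CD103Tg libraries and 4 B6 libraries. CD103Tg mice overexpress CD103, the alpha E integrin subunit, whose gene is Itgae, and B6 (C57BL/6) mice are the wild type. The promoter of the transgene, the age and sex of the mice and any pooling are not given in the sources used here. Nothing says whether replicates came from separate animals, so the p-values cover variation among these libraries that may be technical.

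Chemokine receptors are heptahelical receptors that signal through inhibitory G proteins and steer leukocytes along gradients of small secreted ligands. In CD8 T cells they divide the traffic. CCR7 and its ligands CCL19 and CCL21 bring naive and central memory cells into the T cell zones of lymph nodes, CXCR5 follows CXCL13 into B cell follicles, and CXCR4 responds to CXCL12. CXCR3, CCR2, CXCR6 and CX3CR1 take effector and memory cells to inflamed tissue, and CCR9 and GPR15 take them to the small and large intestine.

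The deposited values are CPM (reads of a gene scaled to a library size that TMM normalization adjusts), and estimated reads over the listed genes came to 50187281 to 56371473 per library. Itgae, the overexpressed gene, averaged 4460 ± 861 CPM in CD103Tg and 76.1 ± 65.5 CPM in B6 (mean ± SD, n = 4 each). B6 replicate 4 held 173.85 CPM of Itgae, against 37.47 to 51.44 CPM in the other B6 libraries. Cd247, the gene of the CD3 zeta chain, averaged 8711 ± 1001 CPM in CD103Tg and 345 ± 89.2 CPM in B6, so the comparison cannot be told apart from a rise of that chain. B6 replicate 4 was also the highest B6 library for Cd247, at 477.85 CPM, against 285.42 to 314.81 CPM in the others. The CD8 T cell label was borne out by Cd3e at 830 ± 45.0 CPM in CD103Tg and 900 ± 62.7 CPM in B6, and by Cd8b1 at 1691 ± 134 CPM in CD103Tg and 1934 ± 139 CPM in B6, while Cd4 is not listed in the table. Of 8 identity and sort genes, Il2rb rose by 0.70 ± 0.08 on the log2 scale, Trac and Cd8a fell by 0.65 ± 0.07 and 0.24 ± 0.06, and the other 5 were not called. Over all tested genes, 31.2% were called.

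Of the 9 receptors, 3 rose in CD103Tg (Ccr2, Cx3cr1 and Cxcr6), 3 fell (Cxcr5, Gpr15 and Ccr7), and 3 did not pass the test (Cxcr3, Cxcr4 and Ccr9). The test was limma on log2(CPM + 1) over the 11503 genes averaging 1 CPM or more, and a gene was called at a Benjamini-Hochberg adjusted p under 0.05. Of all tested genes 31.2% were called, 17.4% as higher and 13.8% as lower in CD103Tg. Calls with at least a 2-fold difference, a log2 fold change of at least 1 in size, were made for 5 of the 9 receptors and for 4.96% of all tested genes. The CD103Tg and B6 libraries did not overlap for 7 of the 9 receptors, the 6 called ones and Cxcr3, and for 31% of all tested genes. The median log2 fold change was -0.17 over the 9 receptors and -0.005 over all tested genes. The receptors were chosen with earlier results of these data known, so these shares are no test of the set. In a bulk library, fewer cells carrying a receptor and less RNA in each cell cannot be told apart.

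**Figure D1:**
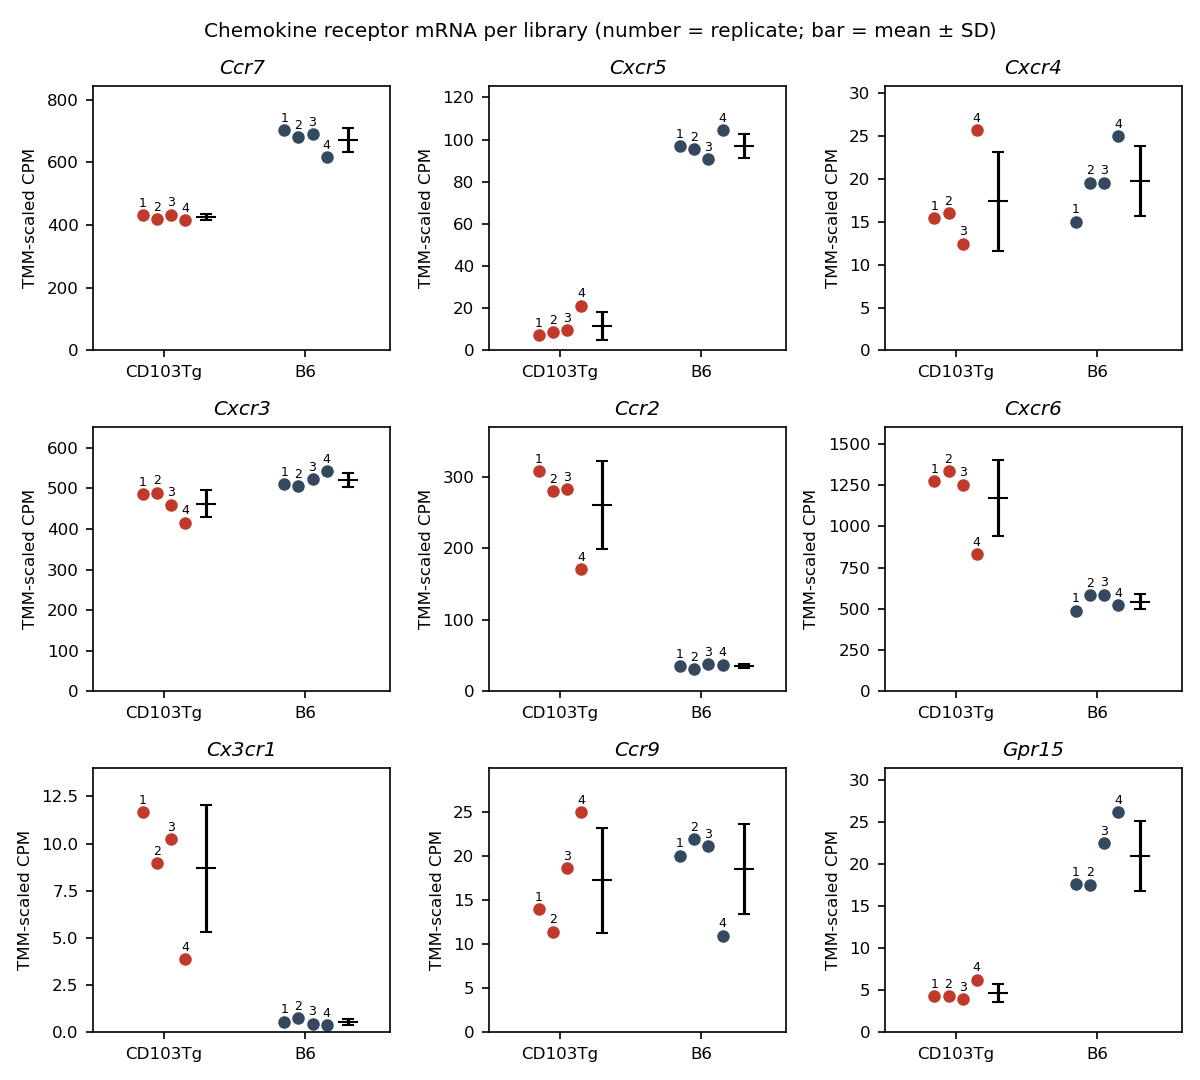
TMM-scaled CPM of the 9 receptors in each library, on a linear axis that starts at 0, with CD103Tg (red) left of B6 (blue); numbers are replicates and bars are mean ± SD (n = 4). Ccr2, Cxcr6 and Cx3cr1 are higher in every CD103Tg library than in any B6 library, and Cxcr5, Gpr15, Ccr7 and Cxcr3 are lower.

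The lymphoid homing receptors were lower or not distinguishable. Ccr7, the lymph node entry receptor (GRCm38 chromosome 11, 99144196 to 99155077, minus strand), stood at 432.24, 418.97, 433.36 and 415.05 CPM in the CD103Tg libraries, against 702.66, 679.92, 689.21 and 616.1 CPM in the B6 libraries. The CD103Tg values were tightly grouped and all lay below the lowest B6 value, that of B6 replicate 4. On the log2 scale the difference was -0.66 ± 0.05 (SE; limma adjusted p = 7.48e-06), with means of 425 ± 9.27 CPM in CD103Tg and 672 ± 38.4 CPM in B6, so Ccr7 was still among the abundant receptors in CD103Tg.

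Cxcr5, the follicle homing receptor (chromosome 9, 44511787 to 44561877, minus strand), had the largest fall on the log2 scale. It stood at 7.13, 8.59, 9.54 and 21.17 CPM in CD103Tg, against 96.93, 95.36, 90.73 and 104.51 CPM in B6. The highest CD103Tg value, in replicate 4, was still far under the lowest B6 value. Cxcr5 had a log2 fold change of -3.07 ± 0.24 (limma adjusted p = 6.07e-06), and the B6 mean was 8.35-fold the CD103Tg mean. Cxcr5 shares 110 exon bases with Bcl9l on the opposite strand, and these libraries do not mark the strand. Bcl9l was at 34.3 ± 3.70 CPM in CD103Tg and 42.8 ± 5.45 CPM in B6, a much smaller fall (log2 fold change -0.31 ± 0.10, limma adjusted p = 0.0371). B cells also carry CXCR5, so their genes are given beside it, and their part in the result was not tested. Of 7 B cell genes 6 are listed and 3 were tested, of which Cd79b was not called. Ebf1 and Cd79a were called higher, beside 17.4% over all tested genes. Both passed the filter of 1 CPM through CD103Tg alone. The summed level of the listed B cell genes was 34.0 to 42.5 CPM in CD103Tg and 31.1 to 35.2 CPM in B6, most of it Cd79b, with Ms4a1 at 0.74 to 1.76 CPM in CD103Tg and 0.1 to 0.38 CPM in B6. The immunoglobulin heavy chain gene Ighm, held on the plasma cell list, also fell. It stood at 303.77, 349.87, 380.51 and 493.35 CPM in CD103Tg, against 842.65, 805.32, 851.71 and 763.1 CPM in B6 (log2 fold change -1.11 ± 0.12, limma adjusted p = 4.12e-05). Jchain and Igkc of the same list went the other way, at 9.46 ± 10.6 and 35.9 ± 36.3 CPM in CD103Tg and 0.32 ± 0.18 and 1.32 ± 0.96 CPM in B6. Both were uneven among the CD103Tg libraries, at 2.57 to 25.09 CPM for Jchain and 5.77 to 85.18 CPM for Igkc. Of these, Jchain passed the filter of 1 CPM through CD103Tg alone. Cxcr5 and Ighm were both highest in replicate 4 among the CD103Tg libraries. Among the B6 libraries, replicate 4 was highest for Cxcr5 and lowest for Ighm.

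Cxcr4, the CXCL12 receptor of bone marrow and lymphoid tissue (chromosome 1, 128588199 to 128592293, minus strand), stood at 15.42, 16.04, 12.43 and 25.69 CPM in CD103Tg, against 15.03, 19.56, 19.56 and 24.99 CPM in B6. The groups overlapped over most of their range, and replicate 4 was the highest library of each. The log2 fold change was -0.20 with a 95% interval of -0.64 to 0.23 (limma adjusted p = 0.475), so differences of either sign within that interval are not separated from 0 here.

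Among the receptors of inflamed tissue, Cxcr3 is set apart by the sort, which took CXCR3-positive cells in both genotypes, so its level is conditioned by the gate. Cxcr3, the receptor for CXCL9 and CXCL10 (chromosome X, 101731535 to 101734269, minus strand), stood at 486.13, 489.0, 459.9 and 414.93 CPM in CD103Tg, against 509.37, 505.57, 521.88 and 542.32 CPM in B6. Every CD103Tg library lay below every B6 library, but the gap was small. The log2 fold change was -0.17 ± 0.06 (95% interval -0.30 to -0.04) with a limma adjusted p = 0.0529. It passed under 3 other scalings and under voom on estimated reads (limma adjusted p = 0.0264 to 0.0478), at log2 fold changes of -0.20 to -0.17. In those runs the median log2 fold change over all tested genes also moved down, to between -0.0395 and -0.00948, from -0.00524 in the main fit. Voom used library totals without the TMM adjustment, so it closely repeats the scaling to equal totals.

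Ccr2, the receptor for CCL2 and related monocyte chemoattractants (chromosome 9, 124101950 to 124113557, plus strand), stood at 307.92, 279.77, 282.78 and 170.87 CPM in CD103Tg, against 35.71, 31.39, 37.69 and 37.57 CPM in B6. The lowest CD103Tg library, replicate 4, was several times any B6 library. Ccr2 had a log2 fold change of 2.80 ± 0.15 (limma adjusted p = 6.54e-07). Transcripts of this receptor family share stretches of sequence, and these libraries do not show how estimated reads were divided there, so the level of Ccr2 carries that uncertainty.

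Cxcr6, the receptor for CXCL16 found on effector and tissue-resident T cells (chromosome 9, 123806475 to 123811760, plus strand), stood at 1273.71, 1334.58, 1253.18 and 831.45 CPM in CD103Tg, against 488.94, 582.01, 585.36 and 521.44 CPM in B6. It was high in both genotypes, and CD103Tg replicate 4 lay between the B6 libraries and the other CD103Tg libraries. Cxcr6 had a log2 fold change of 1.09 ± 0.13 (limma adjusted p = 0.00011). Cxcr6 sits inside Fyco1, which runs on the opposite strand, but they share no exon bases, and Fyco1 was not called (46.6 ± 9.42 CPM in CD103Tg and 54.9 ± 10.8 CPM in B6).

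Cx3cr1, the fractalkine receptor of terminally differentiated effector cells (chromosome 9, 119901616 to 120069879, minus strand), stood at 11.67, 8.97, 10.22 and 3.89 CPM in CD103Tg, against 0.57, 0.76, 0.46 and 0.38 CPM in B6. These were 574, 443, 549 and 203 estimated reads in CD103Tg and 31, 39, 24 and 22 in B6, so the gene was detected at a low level in B6 rather than missed. The log2 fold change of (CPM + 1) was 2.57 ± 0.26 (limma adjusted p = 2.56e-05), and the ratio of the mean CPM was 16.1. Its size depends on the pseudocount: the log2 fold change was 3.70 with a pseudocount of 0.1 CPM, 1.27 with 5 CPM, and 3.89 with voom on estimated reads. Cx3cr1 passed the filter of 1 CPM through the CD103Tg libraries alone.

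**Figure D2:**
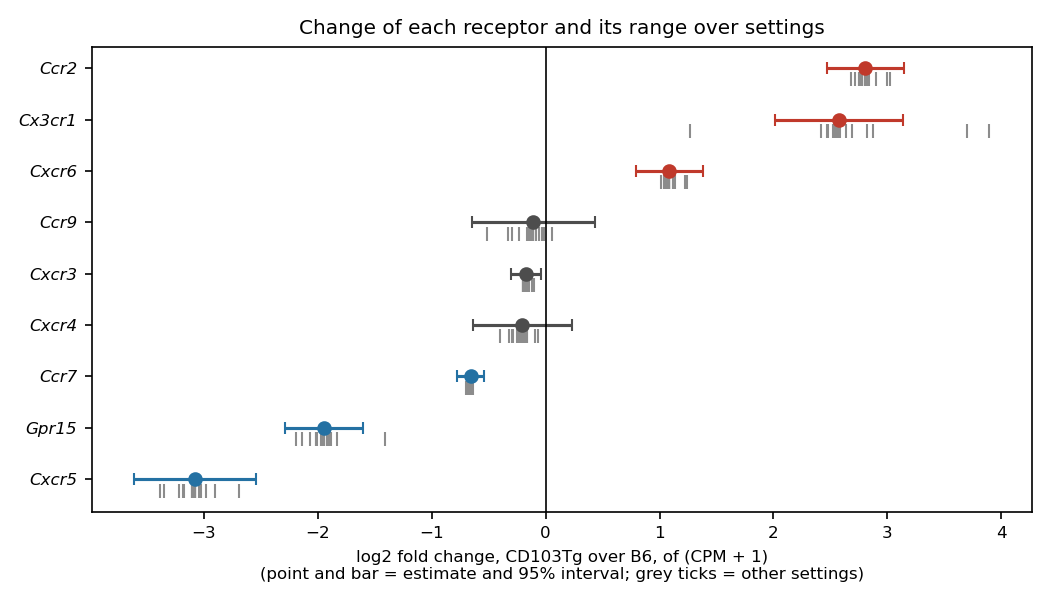
Log2 fold change of each receptor on the (CPM + 1) scale, CD103Tg over B6, with its 95% interval; grey ticks are the same value under each other setting, and colours mark genes called higher (red), lower (blue) or not called (grey). The 6 called receptors keep their side of 0 under every setting shown, and the Cx3cr1 ticks reach from 1.27 to 3.89.

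Monocytes also express Ccr2 and Cx3cr1, so myeloid genes are given beside them. Of 7 monocyte and macrophage markers 3 are listed and 2 were tested. By limma 0 of those 2 were called, beside 31.2% called over all tested genes. Their log2 fold changes were 1.45 ± 0.79 for Lyz2 and 0.98 ± 0.46 for Csf1r. Cd14, Fcgr1, C1qa and C1qb are not listed. Lyz2 stood at 63.89, 78.29, 21.68 and 9.42 CPM in CD103Tg, against 10.7, 55.01, 8.74 and 2.42 CPM in B6 (limma adjusted p = 0.194). Among the CD103Tg libraries, replicate 4 was lowest for Lyz2, for Csf1r (1.09 CPM, against 3.38 to 7.36 CPM in the other 3), for Ccr2 and for Cx3cr1. Among the B6 libraries, replicate 2 was highest for Lyz2 and Csf1r, and it held 31.39 CPM of Ccr2, the lowest B6 value, and 0.76 CPM of Cx3cr1, the highest. The part of myeloid cells in the receptor values was not tested. The summed level of the 3 listed markers was 10.6 to 85.9 CPM in CD103Tg and 3.12 to 60.3 CPM in B6. Of 5 dendritic cell genes tested, 4 were called higher (the class II genes H2-Aa, H2-Ab1 and Cd74, and the integrin gene Itgax), beside 17.4% over all tested genes. Zbtb46 was not called, at 2.16 ± 0.45 CPM in CD103Tg and 1.69 ± 0.39 CPM in B6 (limma adjusted p = 0.289). The summed level of the listed dendritic cell genes was 75.9 to 101.9 CPM in CD103Tg and 18.7 to 31.5 CPM in B6. Of the same markers, Clec9a and Batf3 are not listed in the table, and Flt3 was at 0.45 to 1.07 CPM in CD103Tg and 0 to 0.87 CPM in B6. The part of these cells in the receptor results was not tested. Of 6 NK cell markers, 4 were tested and 3 were called higher, beside 17.4% over all tested genes. Klra8, 1 of those 3, passed the filter of 1 CPM through CD103Tg alone. The summed level of the 6 markers was 14.2 to 20.8 CPM in CD103Tg and 9.95 to 13.5 CPM in B6. Ncr1, not tested, was at 0.18 to 0.61 CPM in CD103Tg and 0.35 to 0.66 CPM in B6. Klra4, also not tested, was at 0 to 0.08 CPM in CD103Tg and 1.32 to 2.42 CPM in B6.

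**Figure D3:**
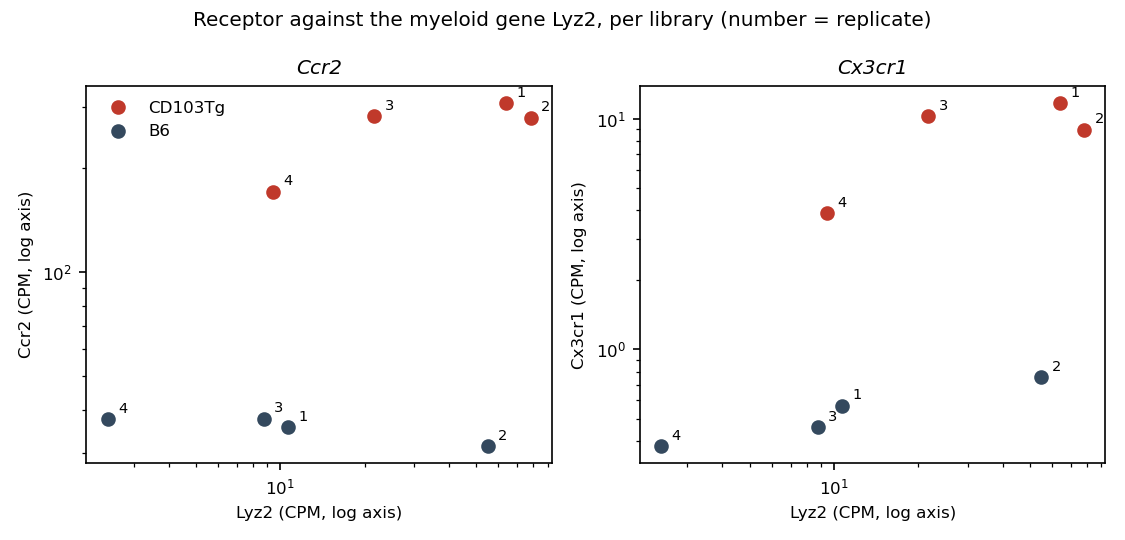
Ccr2 (left) and Cx3cr1 (right) against the myeloid gene Lyz2 in each library, in CPM on log axes, CD103Tg in red and B6 in blue; numbers are replicates. The Lyz2 ranges of the groups overlap, the receptor ranges do not, and CD103Tg replicate 4 is the lowest CD103Tg library on every axis.

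Of the gut homing receptors, Gpr15 fell and Ccr9 was not called. Gpr15, a large-intestine homing receptor related to the chemokine receptors (chromosome 16, 58717433 to 58719070, minus strand), stood at 4.27, 4.31, 3.94 and 6.25 CPM in CD103Tg, against 17.57, 17.51, 22.43 and 26.14 CPM in B6. All CD103Tg libraries lay well below the B6 libraries. Gpr15 had a log2 fold change of -1.94 ± 0.16 (limma adjusted p = 6.23e-06), and the B6 mean was 4.46-fold the CD103Tg mean. Gpr15 shares 204 exon bases with Cpox on the opposite strand, so some of its reads may belong to that gene, and Cpox itself was not called (45.4 ± 2.96 CPM in CD103Tg and 47.1 ± 3.28 CPM in B6).

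Ccr9, the CCL25 receptor of small-intestine homing and of thymocytes (chromosome 9, 123678439 to 123784330, plus strand), stood at 13.97, 11.39, 18.63 and 24.95 CPM in CD103Tg, against 20.03, 21.87, 21.12 and 10.96 CPM in B6. The libraries numbered 4 were the highest of CD103Tg and the lowest of B6, and the groups overlapped over most of their range. The log2 fold change was -0.11 with a 95% interval of -0.65 to 0.43 (limma adjusted p = 0.779). Without both libraries numbered 4, an alternative chosen after seeing the data, it was -0.52 and passed (limma adjusted p = 0.0247), and without CD103Tg replicate 2 it was 0.06 (limma adjusted p = 0.884), so these data fix no direction for Ccr9. Plasmacytoid dendritic cells also carry CCR9, and their marker Siglech stood at 3.4, 2.05, 1.77 and 0.67 CPM in CD103Tg and 0.38, 0.21, 0.27 and 0 CPM in B6. The libraries numbered 4 had the least Siglech in each group, with the most Ccr9 among CD103Tg libraries and the least among B6 libraries, and the part of these cells was not tested. Of 5 markers of those cells, 4 were tested and 3 called higher, beside 17.4% over all tested genes. Siglech, 1 of those 3, passed the filter of 1 CPM through CD103Tg alone. The summed level of the listed markers was 177.5 to 221.0 CPM in CD103Tg and 111.4 to 129.1 CPM in B6, mostly of the interferon-induced Bst2.

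Promoters are shown for the 4 called receptors that the RefSeq promoter table of build GRCm38.p6 holds, since 3 of them rose together and 1 fell. It held 7 of the 9 receptors, and Cxcr5 and Ccr7 are named without sequence. Each window runs from 250 bases before to 50 after the gene start, printed 5′ to 3′ on the strand of the gene. The windows are chr9:124101933-124102232, plus strand for Ccr2; chr9:123806227-123806526, plus strand for Cxcr6; chr9:120068247-120068546, minus strand for Cx3cr1; and chr16:58718823-58719122, minus strand for Gpr15. Capitals mark matches, on either strand, to the AHR core GCGTG, the forkhead motif GTAAACA, the TCF/LEF core CTTTGA or the T-box core AGGTGTG.
Ccr2: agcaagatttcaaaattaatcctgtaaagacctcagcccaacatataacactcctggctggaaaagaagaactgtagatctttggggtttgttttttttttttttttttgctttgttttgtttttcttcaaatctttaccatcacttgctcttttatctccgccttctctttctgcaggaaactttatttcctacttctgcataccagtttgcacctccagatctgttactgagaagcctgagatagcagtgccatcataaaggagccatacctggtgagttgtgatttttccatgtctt
Cxcr6: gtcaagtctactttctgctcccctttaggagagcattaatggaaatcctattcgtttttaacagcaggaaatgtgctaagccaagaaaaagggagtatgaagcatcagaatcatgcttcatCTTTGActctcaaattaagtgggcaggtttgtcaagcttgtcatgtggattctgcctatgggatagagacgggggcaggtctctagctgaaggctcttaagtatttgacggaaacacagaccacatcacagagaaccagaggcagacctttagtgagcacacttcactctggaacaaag
Cx3cr1: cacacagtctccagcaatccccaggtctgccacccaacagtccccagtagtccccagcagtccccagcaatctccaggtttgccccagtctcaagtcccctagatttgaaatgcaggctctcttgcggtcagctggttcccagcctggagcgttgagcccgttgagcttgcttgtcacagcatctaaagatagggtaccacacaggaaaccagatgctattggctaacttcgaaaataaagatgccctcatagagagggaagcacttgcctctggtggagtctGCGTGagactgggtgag
Gpr15: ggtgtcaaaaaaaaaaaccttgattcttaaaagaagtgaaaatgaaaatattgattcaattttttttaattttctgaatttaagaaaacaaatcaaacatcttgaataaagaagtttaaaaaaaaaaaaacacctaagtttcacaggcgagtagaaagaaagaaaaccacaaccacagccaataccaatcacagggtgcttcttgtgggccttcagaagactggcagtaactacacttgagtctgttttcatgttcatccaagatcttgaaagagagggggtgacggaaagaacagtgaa

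Of these 4 windows, that of Cxcr6 held CTTTGA, at 129 bases before the start, and that of Cx3cr1 held GCGTG, 34 bases into the transcript. The windows of Ccr2 and Gpr15 held none of the 4 motifs. GCGTG occurs in 32.4% of all 32851 promoter windows, CTTTGA in 16%, AGGTGTG in 5.84% and GTAAACA in 3.65%. Over the 7 receptors in the table, GCGTG was found in 3 (Cxcr4, Cx3cr1 and Cxcr3), CTTTGA in 1, and the other motifs in 0. A match is a description of letters and is not a binding site.

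Levels of different genes were compared per kilobase of the longest annotated coding transcript. In CD103Tg the order was led by Cxcr6 at 615 ± 121 CPM per kb, Cxcr3 at 267 ± 19.8, Ccr7 at 215 ± 4.69 and Ccr2 at 45.5 ± 10.6 CPM per kb. In B6 it was led by Ccr7 at 340 ± 19.4, Cxcr3 at 300 ± 9.57, Cxcr6 at 286 ± 24.8 and Cxcr5 at 34.0 ± 2.01 CPM per kb. The B6 values of Cxcr3 (292.1 to 313.3) and Cxcr6 (256.4 to 307.0 CPM per kb) overlapped between libraries, so their order there is not resolved, and the range of Ccr7 in B6 (311.5 to 355.2) overlapped that of Cxcr3. The other members were at most 9.64 CPM per kb on average in CD103Tg, where Cxcr4, Cxcr5, Ccr9, Gpr15 and Cx3cr1 followed, each overlapping the next in its library range, so their order is not resolved. In B6 the remaining receptors were Gpr15 at 12.8, Cxcr4 at 10.96, Ccr2 at 6.21, Ccr9 at 3.56 and Cx3cr1 at 0.12 CPM per kb, with overlapping ranges for Gpr15 (10.69 to 15.96) and Cxcr4 (8.33 to 13.85 CPM per kb). With the union of all exons as the length, Ccr9 moved to last place in CD103Tg, behind Gpr15 and Cx3cr1, and the order in B6 was the same. The lengths of the isoforms used in these cells were not measured.

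As a share of the summed CPM per kb of the 9 receptors, Cxcr6 made up 52.4% ± 4.30 in CD103Tg and 28.7% ± 1.80 in B6 (SD over libraries, n = 4 each). Ccr7 made up 18.7% ± 2.39 in CD103Tg and 34.2% ± 1.90 in B6, and Cxcr3 made up 23.1% ± 1.52 in CD103Tg and 30.3% ± 1.40 in B6. Ccr2 made up 3.86% ± 0.51 in CD103Tg and 0.63% ± 0.06 in B6, against 0.38% ± 0.28 in CD103Tg and 3.43% ± 0.28 in B6 for Cxcr5. These shares describe the make-up of the receptor mRNA and were not tested, since they sum to a fixed total.

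**Figure D4:**
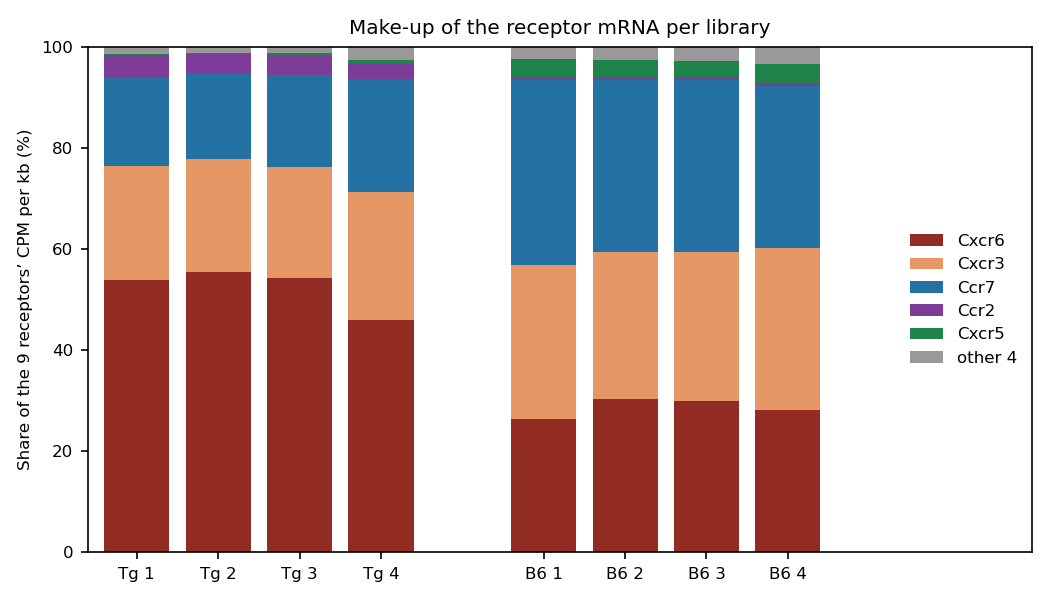
Share of the summed CPM per kb of the 9 receptors held by each receptor, for the 4 CD103Tg libraries (left) and the 4 B6 libraries; lengths are of the longest coding transcript. Cxcr6 takes 46.1% to 55.5% in CD103Tg libraries and 26.5% to 30.3% in B6 libraries, with a narrower band of Ccr7 in CD103Tg.

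CD103Tg replicate 4 stood nearest to B6 among the CD103Tg libraries for 5 of the 6 called receptors, Ccr7 being the exception, where replicate 3 was nearest. Over all 3592 called genes the same library was nearest in 45%. Without it, the log2 fold change was 3.00 for Ccr2, 1.24 for Cxcr6, 2.87 for Cx3cr1, -3.38 for Cxcr5 and -2.06 for Gpr15, all of them called by limma and larger in size than with it. Itgae was highest in that library, at 5508.8 CPM, against 3468.69 to 4692.45 CPM in the other CD103Tg libraries. The summed level of 10 cell cycle genes was also highest there, at 922.1 CPM, against 624 to 763.5 CPM in the other CD103Tg libraries and 305.2 to 367.9 CPM in B6, and its part in the receptor values was not tested. Among the B6 libraries, replicate 4 was nearest to CD103Tg for 1 of the 6 called receptors and for 33.5% of all called genes.

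The other chemokine receptors tested and reported here were higher. Of 16 on the list 6 are listed in the table and 3 were tested. All 3 rose (Ccr8, Ccrl2 and Xcr1), beside 17.4% called higher over all tested genes. The filter needed a mean of 1 CPM, which Ccr8 reached through CD103Tg alone, and all 3 were low, with a mean under 5 CPM over the libraries. Ccr8, the CCL1 receptor, was at 2.76 ± 0.85 CPM in CD103Tg and 0.21 ± 0.05 CPM in B6 (log2 fold change 1.61 ± 0.17, limma adjusted p = 3.19e-05). Ccrl2, an atypical receptor that presents chemerin, was at 6.53 ± 2.37 CPM in CD103Tg and 1.04 ± 0.39 CPM in B6. Xcr1, the XCL1 receptor of cross-presenting dendritic cells, was at 4.66 ± 0.60 CPM in CD103Tg and 2.87 ± 0.88 CPM in B6 (limma adjusted p = 0.0198), and lost its call without CD103Tg replicate 2, B6 replicate 1 or B6 replicate 2 (limma adjusted p = 0.0546 to 0.0628). Ccr1, Cxcr2 and Ccr10 were at or under 1.76 CPM in every library and were not tested.

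Several receptors are neighbours on chromosome 9. Counted from the start of Ccr2, Ccr9 starts at -423.5 kb, Cxcr6 at -295.5 kb and Xcr1 at -239.9 kb. The log2 fold changes along this stretch were -0.11 for Ccr9, 1.09 for Cxcr6, 0.57 for Xcr1 and 2.80 for Ccr2. The tested genes between them that encode no receptor were Lztfl1, Fyco1 and the pseudogene Gm10052. None was called higher by limma, beside 17.4% over all tested genes, and so few genes cannot show whether rises were confined to receptors. Lztfl1, a ciliary trafficking regulator, was at 11.2 ± 1.61 CPM in CD103Tg and 14.9 ± 1.75 CPM in B6 and fell (log2 fold change -0.39 ± 0.12, limma adjusted p = 0.0256). Fyco1 and Gm10052 were not called. Ccr8 in turn starts 22.2 kb from Cx3cr1, and both rose. Both passed the filter of 1 CPM through CD103Tg alone, so each was tested only because it was high there. Over all 9 receptors, 39 tested and reported genes that are no members lay within 200 kb of one, of which 8 were higher and 5 lower, beside 31.2% called over all genes. Higher were Ccr8 and Xcr1, and Top2a near Ccr7, H2afx, Dpagt1 and Gm9830 near Cxcr5, Limd1 near Ccr9 and St3gal6 near Gpr15. Lower were Rps25, Bcl9l and Ddx6 near Cxcr5, Lztfl1 near Cxcr6 and Ccr9, and Rpsa near Cx3cr1. The falls of Ccr7, Cxcr5 and Gpr15 were thus each larger in size than any fall among their tested neighbours, where the lowest log2 fold change was -0.54, of Ddx6.

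**Figure D5:**
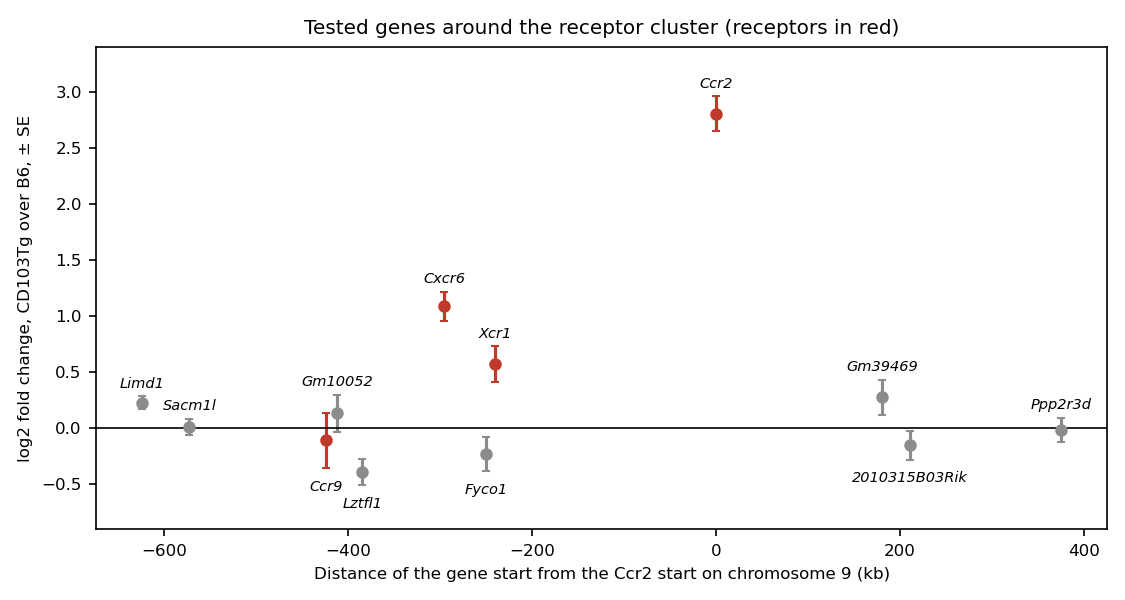
Log2 fold change (CD103Tg over B6, ± SE) of the tested genes reported here against the distance of their start from that of Ccr2 on chromosome 9, in kb; receptors are red and other genes grey. Cxcr6, Xcr1 and Ccr2 lie above 0 with Ccr2 highest at 2.80, while Ccr9, Fyco1 and Lztfl1 lie below 0.

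Of the chemokine ligands, 13 of 32 are listed, 8 were tested and 3 rose, and 0 fell by limma, beside 17.4% higher and 13.8% lower over all tested genes; their median log2 fold change was 0.31. Ccl5, a chemokine made by memory and effector CD8 T cells, stood at 1314.5, 854.96, 793.75 and 586.61 CPM in CD103Tg, against 285.73, 169.82, 321.18 and 304.52 CPM in B6 (log2 fold change 1.69 ± 0.24, limma adjusted p = 0.000302). The interferon-induced CXCR3 ligand Cxcl10 was at 8.37 ± 1.65 CPM in CD103Tg and 1.44 ± 0.39 CPM in B6, and Xcl1, the ligand of XCR1, at 48.1 ± 5.87 CPM in CD103Tg and 37.1 ± 3.50 CPM in B6. Ccl22 was uneven, at 0.32 to 4.52 CPM in CD103Tg and 0.05 to 1.88 CPM in B6, and was not called. The ligands of CCR7, CXCR5, CXCR4, CCR2, CX3CR1 and GPR15 on the list (Ccl19, Ccl21a, Cxcl13, Cxcl12, Ccl2, Ccl7, Ccl12, Cx3cl1 and Gpr15l) are not listed in the table, and the CXCR6 and CCR9 ligands Cxcl16 and Ccl25 were not called.

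Of 40 genes that carry receptor signals to adhesion and movement, 36 were tested, 6 rose, 9 fell and 21 did not pass, with a median log2 fold change of 0.02, beside 17.4% higher and 13.8% lower over all tested genes, so the share that rose was near that over all genes. The rises numbered 3 with quantile normalization, with voom, and without CD103Tg replicate 1 or B6 replicate 1. Rgs1, which shortens signalling through inhibitory G proteins, was at 79.3 ± 8.97 CPM in CD103Tg and 26.7 ± 9.64 CPM in B6 and rose by 1.59 ± 0.20 on the log2 scale (limma adjusted p = 0.000128). The atypical GTPase gene Rhoh fell by 0.61 ± 0.06, the RGS protein gene Rgs10 fell by 0.66 ± 0.10 and the beta-arrestin gene Arrb1 fell by 0.48 ± 0.09.

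Of 23 other homing genes, 19 were tested, 8 rose, 5 fell and 6 did not pass (median log2 fold change 0.06), beside 31.2% called over all tested genes. This list and those above were chosen with earlier results of these data known, so their shares called are no test of the lists. S1pr5, a sphingosine-1-phosphate receptor of egress, was at 39.5 ± 16.9 CPM in CD103Tg and 1.96 ± 0.59 CPM in B6. The integrin beta 1 gene Itgb1 rose by 1.44 ± 0.10, and the fucosyltransferase gene Fut7, needed for selectin ligands, was at 9.45 ± 0.72 CPM in CD103Tg and 3.07 ± 0.25 CPM in B6. The lysophosphatidylserine receptor gene Gpr174 fell by 0.50 ± 0.06.

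Of 25 transcription regulators linked to homing programmes in lymphocytes, 24 were tested, 13 rose, 8 fell and 3 did not pass (median log2 fold change 0.35), beside 31.2% called over all tested genes. These regulators too were chosen with earlier results of these data known, so their share called is no test of the list. With the smallest p-values, Bhlhe40, Id2 and Eomes rose by 3.34 ± 0.20, 2.39 ± 0.15 and 1.06 ± 0.08 and Lef1 fell by 1.10 ± 0.07 on the log2 scale. Id2, an inhibitor of E proteins, was at 393 ± 85.0 CPM in CD103Tg and 73.3 ± 9.53 CPM in B6, and like Ccr2 it was lowest in replicate 4 among the CD103Tg libraries (277.9 CPM).

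For the 3 called receptors with the largest log2 fold changes, the genes with the most similar profile over the 8 libraries were found by the root mean square difference of centred log2(CPM + 1) values among genes averaging 5 CPM or more. The nearest to Cxcr5 were the sialyltransferase gene St6gal1 (difference 0.219; 37.8 ± 22.6 CPM in CD103Tg and 242 ± 22.7 CPM in B6) and the sodium pump gene Atp1b1 (0.282). The nearest to Ccr2 were Entpd1, the gene of the ectonucleotidase CD39 (0.146; 62.9 ± 18.0 CPM in CD103Tg and 8.44 ± 1.68 CPM in B6), and the potassium channel gene Kcnk5 (0.182). The nearest to Cx3cr1 was Ccr2 itself (0.249), followed by Id2 (0.3001). The profiles span both genotypes, so genes with a genotype change of like size lie near each other. For Cx3cr1 that size depends on the pseudocount, with a log2 fold change of 2.57 at 1 CPM and 3.70 at 0.1 CPM. For Ccr2 it was 2.80 and 2.84, and profiles were not compared at other pseudocounts.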

How the data were processed

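RNA of sorted Ly6C+CXCR3+ CD8 T cells was measured in 4 CD103Tg and 4 B6 libraries. Per the labels' protocols, libraries were made with SMART-Seq v4 and Nextera XT, which mark no strand and carry no molecular identifiers. RSEM, STAR 2.7.0f, cutadapt 1.18 and bcl2fastq 2.17 are named, with GRCm38 and mm10, per the submitters' processing notes. The authors deposited TMM-scaled CPM of a filtered gene set, a normalized signal and not counts, and how genes were filtered is not stated there. All 13245 gene IDs matched GENCODE M21 (GRCm38).

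The value of 1 read per library was found from the steps of the CPM (0.0171 to 0.0203 CPM). Of low values, 62.8% to 64.4% came to whole reads with a tolerance of 0.005, the rest being fractions as RSEM gives. The main test therefore used the CPM, and voom on the estimated reads was run only as an alternative. With limma 3.58.1 (R 4.3.3) and a mean-variance trend, log2(CPM + 1) of genes averaging 1 CPM or more was compared between genotypes, two-sided, Benjamini-Hochberg over all tested genes. Python 3.11.15 was used otherwise.

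The receptors and gene lists were chosen with earlier results of these data known. Genes named beside the receptors are other chemokine receptors in the table, the 4 smallest p-values of each list, called neighbours within 200 kb, marker genes and the nearest profiles. Some other genes, among them Itgae, Cd247, Cpox, Fyco1 and further ligands, were named after their values were seen. A few other genes are not reported here, and counts over lists and neighbours leave them out. Alternatives were pseudocounts of 0.1 and 5, other filters and scalings, array weights, a block for the replicate number and each library left out, and, chosen after seeing the data, voom and leaving out both libraries numbered 4.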

Additional observations from a re-analysis of the deposited data

Results flagged for a closer look

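In 3 of the 18 receptor groups of 4 libraries, 1 library stood far from the other 3, as judged by its gap to the nearest library over the range of the group. Chance gives such a flag in about 1 of 20 groups. Cxcr6 was lowest in CD103Tg replicate 4, at 831.45 CPM, and Gpr15 was highest in the same library, at 6.25 CPM. Ccr9 was lowest in B6 replicate 4, at 10.96 CPM. In the first 2 cases the library lay toward the B6 values. Leaving that library out kept the call of both genes, with log2 fold changes of 1.24 for Cxcr6 and -2.06 for Gpr15. The cause was not tested.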

How the results depend on the processing

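Ccr2, Cxcr6, Cx3cr1, Ccr7, Cxcr5 and Gpr15 kept their direction and call under all alternatives run, except that Cx3cr1 was not tested with a minimum mean of 5 CPM. Without single replicates, the log2 fold changes were 2.71 to 3.00 for Ccr2, 1.02 to 1.24 for Cxcr6, 2.41 to 2.87 for Cx3cr1, -0.70 to -0.64 for Ccr7, -3.38 to -2.90 for Cxcr5 and -2.06 to -1.83 for Gpr15, and those of Ccr9 were -0.33 to 0.06, so that its sign turned to 0.06 without CD103Tg replicate 2. Cxcr3 passed the threshold with median-of-ratios scaling (log2 fold change -0.17, limma adjusted p = 0.0478), quantile normalization (-0.18, limma adjusted p = 0.0464), equal totals (-0.20, limma adjusted p = 0.0264) and voom (-0.20, limma adjusted p = 0.0269), and did not pass in the other 15, where limma adjusted p reached 0.188. Voom used library totals without the TMM adjustment, so it closely repeats the scaling to equal totals. Ccr9 passed without both libraries numbered 4 (-0.52). Cd44, not called, ranged over -0.012 to 0.107 without single replicates. Genes called numbered 1590 to 2154 as higher and 1181 to 1995 as lower, with 1741 and 1995 under quantile normalization, 1756 and 1848 with equal totals, and 2000 and 1592 as reported. Called rises among chemokine ligands numbered 5 with no filter, among other chemokine receptors 0 with a minimum of 5 CPM, under which none of the 3 was tested, and among signalling genes 3 with quantile normalization or voom and 3 to 7 without single replicates. The labels do not say that replicate numbers pair the samples, and the deviations of same-numbered libraries correlated at 0.221, 0.35, -0.0807 and 0.123, not all above 0.1, with numbers 1 and 2 correlating best with their own number and 3 and 4 with each other's, so pairing was neither shown nor excluded and the fit without a block was kept. Blocked by replicate number, 2029 genes were higher and 1653 lower, no receptor of the 9 changed its call, and Ccl22 was called (log2 fold change 0.56, limma adjusted p = 0.0412).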

Other observations

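Marker lists of cells not described above gave the following levels, beside 17.4% called higher and 13.8% called lower over all tested genes. Of 5 plasma cell genes, 3 were tested: Jchain and Igkc rose, at 9.46 ± 10.6 and 35.9 ± 36.3 CPM in CD103Tg and 0.32 ± 0.18 and 1.32 ± 0.96 CPM in B6, and Ighm fell, as given above. Jchain passed the filter of 1 CPM through CD103Tg alone. Of 5 gamma delta and innate-like T cell genes, 2 were tested: Tcrg-C1 rose to 23.4 ± 8.93 CPM in CD103Tg, against 4.10 ± 1.08 CPM in B6, while Trdc was not called (13.0 ± 2.07 CPM in CD103Tg and 10.8 ± 2.52 CPM in B6). The 3 listed granulocyte genes summed to 0.134 to 6.32 CPM in CD103Tg and 0.0171 to 3.41 CPM in B6 and were not tested. Of 5 CD4 T cell genes 3 are listed: Il2ra was tested and called higher, at 3.08 ± 0.50 CPM in CD103Tg and 1.92 ± 0.23 CPM in B6, while Cd40lg was at 0.05 ± 0.02 CPM in CD103Tg and 0.56 ± 0.15 CPM in B6 and Zbtb7b at 0.30 ± 0.13 CPM in CD103Tg and 0.71 ± 0.49 CPM in B6, both below the filter. Pecam1, on the stromal list, was at 63.3 ± 5.40 CPM in CD103Tg and 87.8 ± 8.61 CPM in B6.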
